A study of Mus musculus with 4 samples.

Results

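The Gbp and Irg genes encode interferon-inducible GTPases, and the members described here were Gbp2, Gbp3, Gbp4, Gbp5, Gbp6 and Gbp7 together with Iigp1, Igtp, Irgm1 and Irgm2. They were the 10 of 32285 listed genes chosen by symbol, and all 10 had UMIs in each of the 4 libraries. A UMI (unique molecular identifier) tags 1 captured RNA molecule, so that a UMI count is a count of molecules. The measurements came from single-cell RNA sequencing of dissociated left lung lobes from male wild-type C57BL/6 mice. The labels give a food-restricted diet without tying it to an age. The study's methods describe that diet for the mice aged to 22 months and do not state it for young mice. Age and diet may thus not be separable. Young mice (2 to 3 months) and aged mice (22 months) were either naive, called nonventilated, or mechanically ventilated for 3 hours at a tidal volume of 20 mL/kg. The volume was capped at a fixed maximum per breath, so that heavier mice received less per kg. Body weights by library were not used here, and age and the volume received cannot be told apart. Ventilated mice also received ketamine, medetomidine and buprenorphine, and had an endotracheal tube and arterial and venous lines. They were ventilated with pure oxygen, without positive end expiratory pressure, and were given Ringer's lactate through the lines. The nonventilated mice had none of these, so that ventilation and these procedures cannot be told apart. Each of the 4 groups was 1 library made from 3 pooled mice, and no difference below has a replicate check or a p-value. The ranges in parentheses after a value are 95% intervals that cover counting error only.

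Guanylate-binding proteins (Gbp) and immunity-related GTPases (Irg) are among the most strongly interferon-inducible proteins of mouse cells. Interferon gamma acts largely through the gamma-activated site (GAS) of target promoters, and type I interferons act mainly through the interferon-stimulated response element (ISRE). The Gbp proteins assemble on the membranes of pathogen-containing vacuoles and on bacteria in the cytosol, and aid inflammasome activation. Iigp1 is an effector Irg protein that coats and disrupts such vacuoles, whereas Igtp, Irgm1 and Irgm2 form the regulatory subgroup that keeps effector GTPases inactive on the membranes of the cell itself.

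The positions of 9 members in the mm10 genome came from the gene models of GENCODE vM21, matched by Ensembl identifier. Gbp5 (chr3:142493978-142522344), Gbp7 (chr3:142530342-142550149), Gbp3 (chr3:142560026-142573209) and Gbp2 (chr3:142620602-142638008) follow one another on the plus strand. Gbp4 (chr5:105115767-105139586) and Gbp6 (chr5:105270702-105293698) lie on the minus strand. Irgm1 (chr11:48861968-48871683, minus strand), Igtp (chr11:58199556-58207591) and Irgm2 (chr11:58199618-58222782) share a chromosome. The models of Igtp and Irgm2 overlap on the same strand, as do those of Gbp4 with Gbp8 and Gbp9 and that of Gbp6 with Gm43302. Gbp6 and Gbp10 are near-identical copies. Reads of these genes could be split or dropped in counting, so their separate values are uncertain.

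RefSeq promoter windows (GRCm38.p6, 250 bases before to 50 bases from the start site on) were given for 7 of the 10 members and were searched on both strands for GAS (TTCNNNGAA) and for ISRE (GAAA and GAAA separated by 2 bases of any kind). An ISRE match was found in a window of all 7 members (Gbp2, Gbp3, Gbp5, Gbp7, Igtp, Irgm1 and Irgm2), against 3.44% of all 32851 windows. A GAS match was found in 4 of them (Gbp5, Gbp7, Igtp and Irgm2), against 8.30% of all windows, and 0.454% of all windows held both. A match describes these letters only and is not evidence of binding. The Gbp5, Irgm1 and Irgm2 windows, and a further Gbp3 window that held no match, lay inside the gene models given above. Those models begin upstream of the start sites used here. Other start sites of these genes were not searched. The last 170 bases before the start site are shown for 5 members, the 4 with both matches and Gbp2, which held an ISRE match alone. Gbp3 and Irgm1 also held ISRE matches alone and are not shown. They are written 5′ to 3′ along the gene (Gbp2 chr3:142620493-142620662, Gbp5 chr3:142496764-142496933, Gbp7 chr3:142530166-142530335, Igtp chr11:58199386-58199555, Irgm2 chr11:58214807-58214976, all on the plus strand), with GAS and ISRE matches in capitals.
Gbp2 promoter: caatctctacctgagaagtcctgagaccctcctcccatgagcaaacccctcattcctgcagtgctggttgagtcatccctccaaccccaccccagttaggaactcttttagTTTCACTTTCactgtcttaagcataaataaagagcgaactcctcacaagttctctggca
Gbp5 promoter: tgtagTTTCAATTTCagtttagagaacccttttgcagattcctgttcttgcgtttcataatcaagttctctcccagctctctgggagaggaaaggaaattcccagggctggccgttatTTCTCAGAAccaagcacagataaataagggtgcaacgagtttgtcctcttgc
Gbp7 promoter: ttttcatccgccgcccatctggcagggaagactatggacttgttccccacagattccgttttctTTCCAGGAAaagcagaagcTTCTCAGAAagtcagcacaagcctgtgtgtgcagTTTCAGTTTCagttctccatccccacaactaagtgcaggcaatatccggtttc
Igtp promoter: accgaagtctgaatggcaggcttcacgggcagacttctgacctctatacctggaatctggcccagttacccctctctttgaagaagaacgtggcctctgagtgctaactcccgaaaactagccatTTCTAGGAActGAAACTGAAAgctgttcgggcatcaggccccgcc
Irgm2 promoter: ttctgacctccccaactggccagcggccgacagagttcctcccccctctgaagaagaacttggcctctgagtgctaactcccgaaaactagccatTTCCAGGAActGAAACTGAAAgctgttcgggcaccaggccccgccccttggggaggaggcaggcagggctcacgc
Gbp2 held an ISRE match alone, on the opposite strand at bases -59 to -50, counted from the base before the start site as -1. In Igtp and Irgm2 the GAS match was followed by the ISRE match after a gap of 2 bases.

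A total of 10160 cells were kept of 15428 barcodes, with 2533, 2976, 2480 and 2171 cells and 24172257, 28010151, 24270012 and 22814008 UMIs. Values for the 4 libraries are given in one order throughout, which is young nonventilated and then young ventilated, followed by aged nonventilated and then aged ventilated. Median depth was 7871 to 9104 UMIs per cell, and pairs of libraries shared 0 to 7 barcodes. Cells were placed in classes from marker genes, with the members and the interferon genes of the lists described below kept out of the clustering. Interferon-responsive genes outside those lists could still take part. There were 13 classes with at least 20 cells in every library, holding 9270 cells. Their markers were detected in each, for example Gpihbp1, Plvap and Vwf in the vascular endothelial-like cells and S100a8 and Csf3r in the neutrophil-like cells. The class called alveolar type II-like was shallow (median 1630.0 UMIs), and finer clustering placed 76 cells with deep type II profiles apart. A finer cluster of 313 shallow cells, led by genes such as Bpifa1, Ltf, Scgb1a1 and Cyp2f2, could not be named. The values of the alveolar type II-like class thus carry little weight and may not be those of type II cells. Outside the classes, 566 cells, led by hemoglobin and heart muscle genes, stayed unnamed. Hemoglobin genes summed to 1.28, 282, 87.1 and 174 CPM of all kept cells, so that the young nonventilated library was the lowest by far.

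Over all kept cells, all 10 members were higher in the young ventilated than in the young nonventilated library. The summed level of the 10 members was 838, 1814, 707 and 619 CPM (UMIs of the members for each 1000000 UMIs of the library). The young ventilated library stood above the other 3, which lay between 619 and 838. In young mice the sum was 2.17-fold higher (2.13 to 2.20) after ventilation, whereas in aged mice it was 1.14-fold lower (1.12 to 1.17). The 2 ventilation comparisons share no library. Because each rests on 1 library a group, the age difference of the ventilation response, -1.31 (-1.35 to -1.27) on the log2 scale (aged minus young), cannot be told apart from differences between the pools.

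Gbp2, a prenylated Gbp protein that targets vacuoles, had the largest fold in young mice. Its levels over all kept cells were 64.8, 282, 53.4 and 89.9 CPM, which was 4.35-fold higher (4.12 to 4.59) in the ventilated library. The young ventilated library was far above the rest, and the aged ventilated library, at 1.68-fold higher (1.57 to 1.81) than its control, was the next highest. Gbp3 and Gbp6, which also locate to vacuoles, followed the same order in young mice. Gbp3 was measured at 27.7, 93.6, 25.9 and 25.2 CPM. Gbp6 was at 31.2, 109, 29.1 and 21.6 CPM. Both were high in the young ventilated library only among the 4, at 3.38-fold higher and 3.49-fold higher (3.22 to 3.79), and Gbp6 was 1.35-fold lower (1.20 to 1.51) in the aged ventilated library. Gbp5, which is also prenylated and has been linked to NLRP3 inflammasome activation, was at 28.8, 96.0, 40.6 and 49.4 CPM. It was 3.33-fold higher (3.06 to 3.63) after ventilation in young mice and 1.22-fold higher (1.12 to 1.33) in aged mice. Neutrophil-like cells, in which Gbp5 was far higher after ventilation at both ages, held 2.21%, 3.87%, 0.946% and 5.75% of the library's UMIs. The part of their changed share in the Gbp5 ratios was not tested. Gbp7, which has been linked to the delivery of oxidase and autophagy proteins, was at 96.7, 234, 73.5 and 82.5 CPM, and Gbp4 at 50.3, 87.7, 35.2 and 29.4 CPM. Gbp7 passed 2-fold in young mice (2.42), whereas Gbp4 did not (1.74).

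The Irg members were less uniform. Iigp1 was at 395, 675, 337 and 187 CPM. It was 1.71-fold higher (1.66 to 1.75) after ventilation in young mice and 1.80-fold lower (1.74 to 1.87) in aged mice, so that the aged ventilated library was the lowest of the 4. Igtp, a regulatory GTPase, was at 32.9, 85.9, 22.1 and 32.7 CPM, higher after ventilation at both ages (2.61-fold in young and 1.48-fold in aged mice). Irgm1, which has been linked to autophagy and resistance to mycobacteria, was at 48.9, 76.9, 41.9 and 49.4 CPM. Irgm2, which has been linked to restraint of the noncanonical inflammasome, varied least, at 60.7, 74.2, 48.5 and 52.0 CPM, and was 1.22-fold higher (1.14 to 1.31) in young ventilated mice. The 3 regulatory members were thus higher after ventilation at both ages over all kept cells, although the aged ratio of Irgm2, 1.07 (0.990 to 1.16), was within counting error of 1, and Iigp1 was lower in aged mice.

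Summed by family, the 6 Gbp members were at 299.6, 902, 258 and 298 CPM and the 4 Irg members at 538, 912, 449.7 and 321 CPM. In young mice the Gbp sum was 3.01-fold higher (2.93 to 3.09) and the Irg sum 1.69-fold higher (1.66 to 1.73) after ventilation. In aged mice the Gbp sum was 1.16-fold higher (1.12 to 1.20) and the Irg sum 1.40-fold lower (1.36 to 1.44), so that the direction of the aged total depended on which family, and mostly on Iigp1, was counted. It also depended on the cell class: without vascular endothelial-like cells, a choice made after seeing the data, the log2 ratio of the aged total was 0.33 and that of the young total 1.47. Neutrophil-like cells were more numerous in the aged ventilated library than in its control, and their part in the aged Gbp sum was not tested. Between ventilated libraries the members lower in aged mice past 2-fold were Gbp6, Gbp3, Iigp1, Gbp2, Gbp4, Gbp7 and Igtp, from 5.03-fold lower for Gbp6 to 2.62-fold lower for Igtp. Between nonventilated libraries Gbp5 was 1.41-fold higher (1.28 to 1.55) in aged mice, and the other 9 members were lower, by at most 1.49-fold for Igtp.

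**Figure D1:**
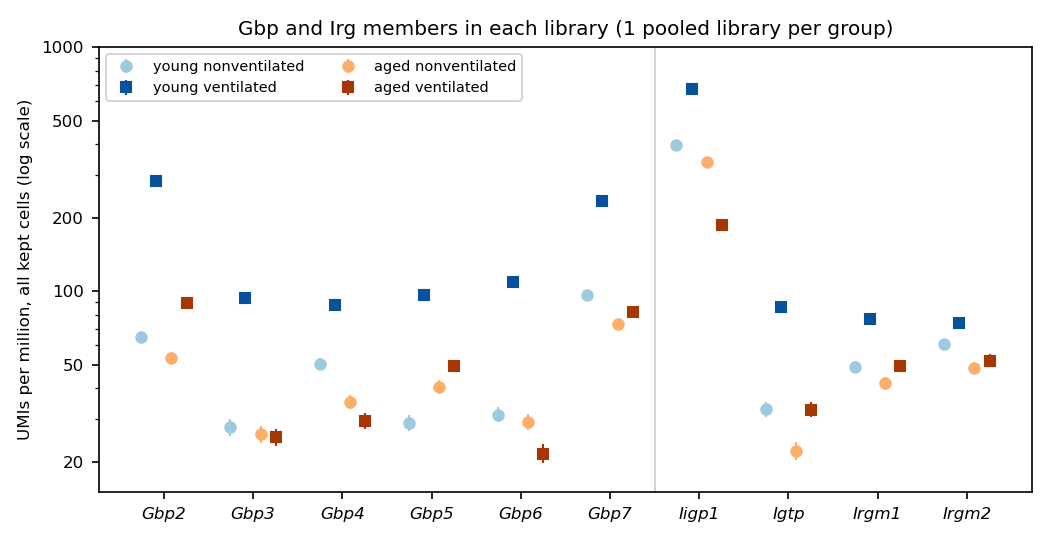
Level of each member (CPM, log scale) over all kept cells of each library; points are the 4 libraries and bars are 95% counting intervals. The young ventilated library is the highest for all 10 members, and the aged ventilated library is the lowest for Iigp1, Gbp4 and Gbp6. It is also the lowest for Gbp3, but only slightly (log2 ratio -0.038 over the aged nonventilated library).

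Past 2-fold, 6 of 10 members were higher in the young ventilated library (Gbp2, Gbp3, Gbp5, Gbp6, Gbp7 and Igtp), against 5.97% of the 16980 genes with at least 40 UMIs over the 4 libraries, and 0 were lower, against 17.6% of genes. The median log2 ratio was 1.33 over the members and -0.25 over all these genes. In aged mice 0 members were past 2-fold after ventilation in either direction, against 4.23% of genes higher and 11% lower, and the medians were 0.13 for the members and -0.19 for all genes. Between nonventilated libraries, 0 members were past 2-fold, against 3.08% of genes higher and 2.04% lower in aged mice, and the members' median was -0.26. Between ventilated libraries, 7 of 10 members were lower in aged mice, against 2.73% of genes, and 0 were higher, against 4.65%. The members' median there was -1.54 and that of all genes 0.06. The aged-over-young comparisons share each of their libraries with a ventilation comparison and are not independent of it. The ventilated libraries had a lower median over genes in CPM than their controls, so median-ratio scaling raised every ventilation log2 ratio by 0.25 in young and 0.19 in aged mice. With it the log2 ratio of the sum was -0.0028 in aged and 1.37 in young mice, and 8 members passed 2-fold in young mice. This scaling also raises the share of all genes past 2-fold higher. That share was not computed, so the 5.97% does not apply to the 8 members.

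By cell class, the summed members were highest in vascular endothelial-like cells (general capillary and venous markers) in all 4 libraries, at 2516, 5033, 2157 and 1587 CPM of the class. In the nonventilated libraries the next 3 classes were lymphatic endothelial-like cells, aerocyte-like cells and fibroblast-like cells, between 585 and 658, and their intervals overlapped. After ventilation the order below the vascular endothelial-like class changed, with aerocyte-like cells ranked next and neutrophil-like cells after them at both ages. Interstitial macrophage or dendritic-like cells (86.9, 96.1, 69.2 and 92.9 CPM) and alveolar macrophage-like cells (69.1, 59.1, 79.5 and 57.5 CPM) were among the 3 lowest classes in every library. Vascular endothelial-like cells held 68.5%, 59.0%, 66.5% and 50.5% of the library's member UMIs, from 22.8%, 21.3%, 21.8% and 19.7% of its UMIs. Of the 40 pairs of a member and a library, the highest class was the vascular endothelial-like in 28, the aerocyte-like in 10 and the neutrophil-like in 2 (Gbp2 and Gbp5 in the aged ventilated library).

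**Figure D2:**
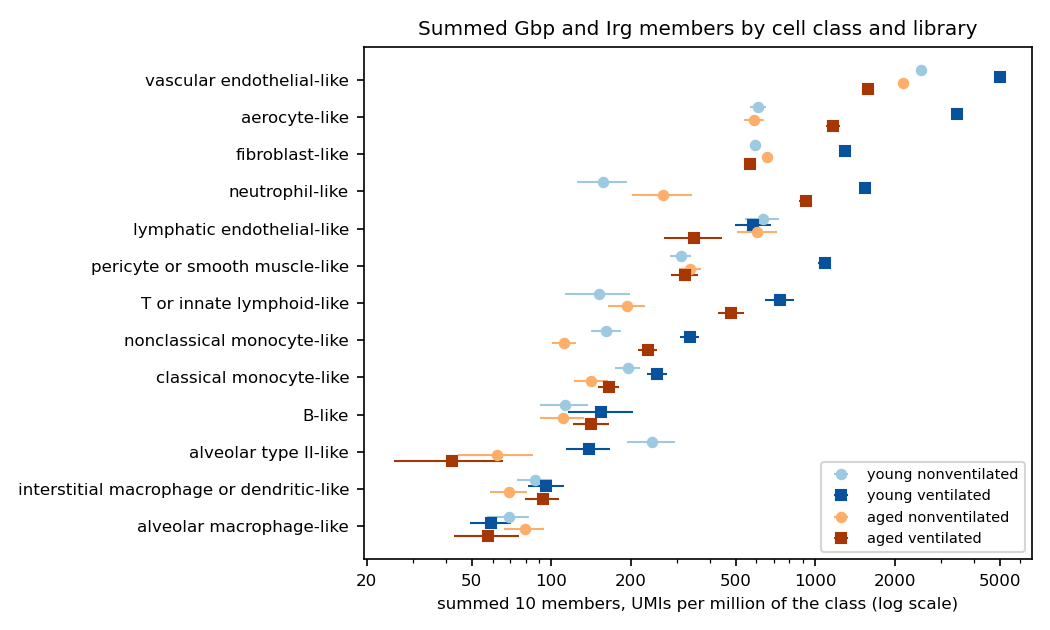
Summed level of the 10 members (CPM of the class, log scale) in 13 cell classes; points are the 4 libraries and bars are 95% counting intervals. In the aerocyte-like and neutrophil-like classes both ventilated libraries lie above both nonventilated ones, whereas in the vascular endothelial-like class the aged ventilated library is the lowest.

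In young mice the summed members were higher after ventilation in 10 of 13 classes, with the interval above 1 in 8, and past 2-fold in 7. In aged mice they were higher in 7 classes (5 with the interval above 1), past 2-fold in 3, and lower in 6 (3 with the interval below 1). The counts past 2-fold depend on classes at the cutoff. Young vascular endothelial-like cells were counted at 2.00002-fold (1.96 to 2.04) and aged aerocyte-like cells were not at 1.996-fold (1.80 to 2.22). Between the ventilated libraries the aged one was lower in all 13 classes, 10 of them with an interval that left out 1. Between the nonventilated libraries the sum was higher in 5 and lower in 8 classes of the aged library, and 1 class, the shallow alveolar type II-like one, was past 2-fold, lower in the aged library. In the finer cluster of 76 cells with deep type II profiles the direction was the opposite. Its aged-over-young ratio was 3.82 (1.60 to 18.1), from 26 and 4 UMIs.

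**Figure D3:**
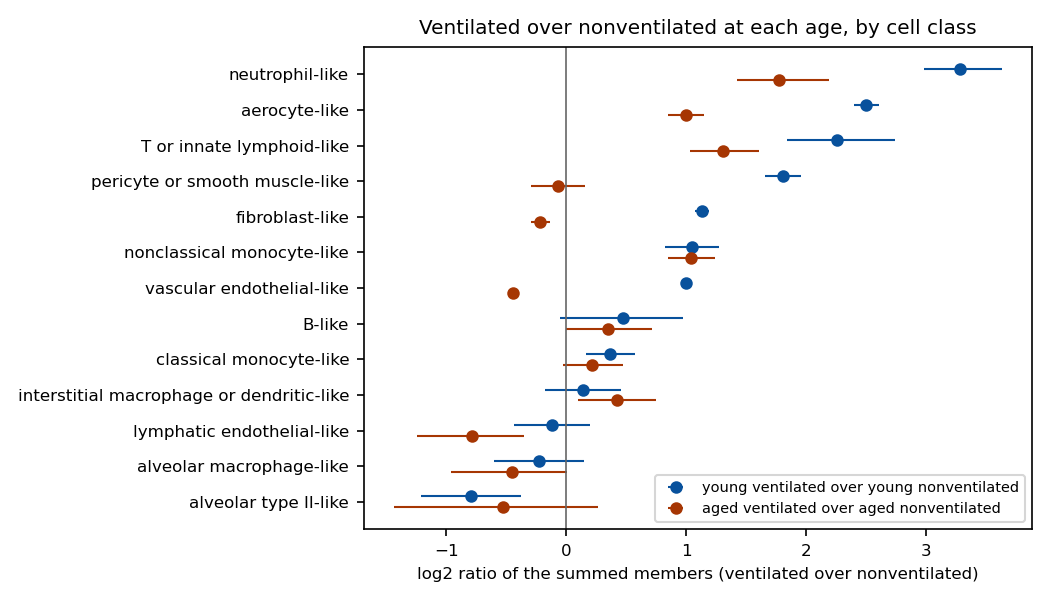
Log2 ratio of the summed members, ventilated over nonventilated, in 13 cell classes at each age; bars are 95% counting intervals and the vertical line marks no difference. Neutrophil-like, aerocyte-like, T or innate lymphoid-like and nonclassical monocyte-like cells lie to the right of the line at both ages, and vascular endothelial-like and fibroblast-like cells lie on opposite sides of it.

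In vascular endothelial-like cells (673, 709, 594 and 447 cells) the sum was 2.00-fold higher (1.96 to 2.04) after ventilation in young mice and 1.36-fold lower (1.32 to 1.40) in aged mice. Gbp2 was at 166, 826, 141 and 182 CPM, and Gbp3 at 69.3, 327, 78.4 and 74.6 CPM, so that both stood high in the young ventilated cells. Gbp7 was at 295, 748, 237 and 243 CPM. Past 2-fold, 6 of 10 members were higher in young mice, against 6.87% of 11702 genes counted in the class, and 0 in aged mice, against 4.95%. Past 2-fold lower there were 0 in young mice, against 21.3%, and 1 in aged mice, against 14%. Iigp1 had the most UMIs there, at 1184, 1717, 1008 and 493 CPM. It was 1.45-fold higher (1.41 to 1.50) in young ventilated mice and 2.04-fold lower (1.94 to 2.15) in aged ventilated mice, the one member past 2-fold lower in this class. Irgm2 was level in young mice, at a ratio of 1.01 (0.928 to 1.11). Neutrophil markers in these cells summed to 27.9, 45.3, 20.2 and 163 CPM (8 markers, 0 of them at 0 throughout) and T cell markers to 0.726, 2.18, 0.378 and 1.11 (8 markers, 4 at 0 throughout). The part of such cells or free RNA in the result was not tested.

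Different clusters held this class in different libraries. One had 94, 698, 102 and 408 cells and the other 579, 11, 492 and 39, so that ventilated and nonventilated cells were mostly apart even though no member was used to make the clusters. Finer clustering gave a venous endothelial-like cluster that all 4 libraries filled (86, 74, 92 and 84 cells). In it the summed members were at 2109, 4618, 2516 and 1821 CPM, and Gbp2 at 135, 1019, 151 and 326 CPM. The sum was 2.19-fold higher (2.07 to 2.32) in young and 1.38-fold lower (1.30 to 1.47) in aged mice, close to the ratios of general capillary-like cells, 1.97 and 0.728. Gbp2 was 2.15-fold higher (1.76 to 2.66) in aged ventilated venous-like cells, and in general capillary-like cells its ratio was 1.00 (0.887 to 1.13).

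Aerocytes are the large capillary cells specialized for gas exchange. In aerocyte-like cells (151, 131, 88 and 86 cells) the summed members were 5.67-fold higher (5.28 to 6.11) after ventilation in young mice and 2.00-fold higher (1.80 to 2.22) in aged mice. In finer clustering, a cluster of 16, 132, 15 and 80 cells stood apart from one of 135, 0, 73 and 6 cells. Another was shallow (69, 95, 41 and 30 cells, median 938 UMIs). Ventilated and nonventilated aerocyte-like cells were thus largely apart, and the part of this in the ratios was not tested. All 10 members were past 2-fold higher in young mice, against 7.83% of 8367 genes, and 8 in aged mice, against 5.65%. None was past 2-fold lower at either age, against 21.6% of genes in young and 14.4% in aged mice. Gbp5 was nearly absent from nonventilated aerocyte-like cells (9 and 5 UMIs), and its levels were 6.22, 148, 5.61 and 40.7 CPM. It was 21.6-fold higher (12.3 to 52.9) in young ventilated cells and 6.20-fold higher (2.85 to 23.6) in aged ventilated cells. Gbp4 was at 65.7, 471, 41.5 and 117 CPM, and Gbp6 at 64.3, 468, 68.4 and 149.8 CPM. Igtp was at 44.9, 382, 46.0 and 132 CPM, higher after ventilation by 8.40-fold in young and 2.82-fold in aged cells. In each of these genes both ventilated libraries were above both nonventilated ones. Iigp1 was the exception, at 92.0, 408, 120.0 and 97.4 CPM, with an aged ratio of 0.813 (0.607 to 1.08). In both ventilated libraries Gbp4, Gbp6, Igtp, Irgm1 and Irgm2 were all at a higher level in aerocyte-like than in vascular endothelial-like cells, whereas in both nonventilated libraries all 5 were lower. Neutrophil markers summed to 215, 82.0, 40.4 and 336 CPM of these cells (8 markers, 0 at 0 throughout), highest in the young nonventilated and aged ventilated libraries, and T cell markers to 0, 0, 0 and 5.35 (8 markers, 4 at 0 throughout). The part of neutrophil or T cell RNA in the aerocyte-like result was not tested.

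Neutrophil-like cells (121, 222, 58 and 256 cells) had the largest ratios of the sum among the 13 classes, 9.73-fold higher (7.90 to 12.4) in young and 3.41-fold higher (2.68 to 4.56) in aged mice. The nonventilated values rested on 84 and 61 UMIs. Gbp2 was at 50.5, 799, 78.4 and 372 CPM, and Gbp5 at 7.49, 257, 13.1 and 275 CPM. For Gbp5 the ventilated libraries were alike, and its ratios were 27.6 (13.3 to 127) in young and 15.8 (7.15 to 103) in aged mice, from 4 and 3 nonventilated UMIs. Gbp4 and Gbp6 had under 40 UMIs in this class and were not counted. Past 2-fold, 7 of the other 8 members were higher in young mice, against 11.5% of 4860 genes, and 3 in aged mice (Gbp2, Gbp3 and Gbp5), against 9.07%. In the other direction there were 0 in young mice, against 23.4%, and 1 (Iigp1) in aged mice, against 24.5%. The Iigp1 call rested on few UMIs, 9.84% of 61 and 0.827% of 1209 member UMIs in the aged libraries. General capillary markers summed to 89.9, 150, 279 and 113 CPM of these cells, and the part of such RNA in the Iigp1 call was not tested. The calls of Gbp3 were made against a count of 0 with the added UMI, since it had 0 UMIs in both nonventilated libraries and 82 and 28 in the ventilated ones. Gbp6 had 19 UMIs in the young ventilated library and 0 in the other 3. Gbp2 and Gbp5 made up 46.2% and 21.3% of the member UMIs in this class.

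Fibroblast-like cells (459, 585, 390 and 340 cells) included a shallow cluster of 83, 88, 82 and 83 cells, with a median of 1549 UMIs. In finer clustering, a cluster of 6, 447, 1 and 218 cells stood apart from a cluster of 233, 0, 193 and 2 cells. Another, led by genes such as Dcn and Ccl11, had 137, 50, 114 and 37 cells. The mix of fibroblast-like cells thus differed with ventilation, and its part in the ratios below was not tested. In this class Iigp1 was the leading member, with 69.4% of the member UMIs. It was at 429, 884, 471 and 383 CPM, which was 2.06-fold higher (1.96 to 2.16) after ventilation in young mice and 1.23-fold lower (1.15 to 1.31) in aged mice. Gbp6 was at 5.79, 56.0, 20.7 and 9.31 CPM, and 9.41-fold higher (6.75 to 14.3) in young ventilated cells. Past 2-fold, 7 of 10 members were higher in young mice, against 8.35% of 12342 genes, and 1 (Igtp) in aged mice, against 5.15%. In the other direction 0 members were past 2-fold lower in young mice, against 22.2% of genes, and 3 (Gbp4, Gbp5 and Gbp6) in aged mice, against 12.9%. Igtp was at 11.2, 48.6, 7.40 and 16.5 CPM, higher after ventilation at both ages. Pericyte or smooth muscle-like cells resembled fibroblast-like cells, with Iigp1 at 56.8% of member UMIs and the sum at 310.3, 1086, 336 and 321 CPM. Within them the young ratio was 5.62 (4.77 to 6.73) in the pericyte-like finer cluster and 1.40 (1.19 to 1.66) in the smooth muscle-like one, and the aged ratios were 1.02 (0.806 to 1.28) and 0.930 (0.748 to 1.15). Iigp1 reached 1076 CPM in young ventilated pericyte-like cells, from 155 in their control.

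T or innate lymphoid-like cells (41, 47, 78 and 65 cells) had the summed members at 152, 735, 194 and 482 CPM, with both ventilated libraries above both nonventilated ones. The ratios were 4.78 (3.58 to 6.68) in young and 2.48 (2.04 to 3.05) in aged mice. Iigp1 was at 2.91, 120.5, 2.51 and 34.5 CPM there, from 1 and 2 UMIs in the nonventilated libraries. Nonclassical monocyte-like cells had nearly the same ratio at both ages, 2.06 (1.77 to 2.42) and 2.06 (1.80 to 2.37), led by Gbp2 at 44.6, 146, 36.1 and 114 CPM. Classical monocyte-like cells had ratios of 1.29 (1.12 to 1.49) and 1.16 (0.980 to 1.39). They fell into 2 clusters, one with 107, 62, 120 and 19 cells and one with 0, 107, 0 and 139, the latter filled by ventilated libraries alone.

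Other classes showed little or no higher level after ventilation, although a dendritic-like finer cluster did in aged mice. In lymphatic endothelial-like cells the sum was at 632, 584, 604 and 349 CPM, with ratios of 0.924 (0.740 to 1.15) in young and 0.582 (0.422 to 0.784) in aged mice, the latter from 20 aged ventilated cells. Alveolar macrophage-like cells had ratios of 0.855 (0.661 to 1.11) and 0.732 (0.514 to 1.00), and Gbp7 and Gbp2 made up most of their few member UMIs (41.5% and 24.9%). B-like cells had ratios of 1.39 (0.963 to 1.96) and 1.28 (0.999 to 1.65). Interstitial macrophage or dendritic-like cells had ratios of 1.11 (0.887 to 1.38) and 1.34 (1.07 to 1.68). In the dendritic-like finer cluster the sum was at 15.8, 25.5, 9.26 and 34.1 CPM, from 11, 21, 9 and 27 UMIs. The ratios of that cluster were 1.55 (0.743 to 3.70) in young and 3.44 (1.68 to 8.90) in aged mice, from these few UMIs. In the shallow alveolar type II-like class the members had 93, 107, 39 and 19 UMIs, and the young ratio of 0.576 (0.433 to 0.770) turned above 1 when every cell weighed the same. The finer cluster with deep type II profiles had 4, 12, 26 and 6 member UMIs. Its ratios were 1.61 (0.563 to 7.91) in young and 0.394 (0.118 to 0.872) in aged mice.

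**Figure D4:**
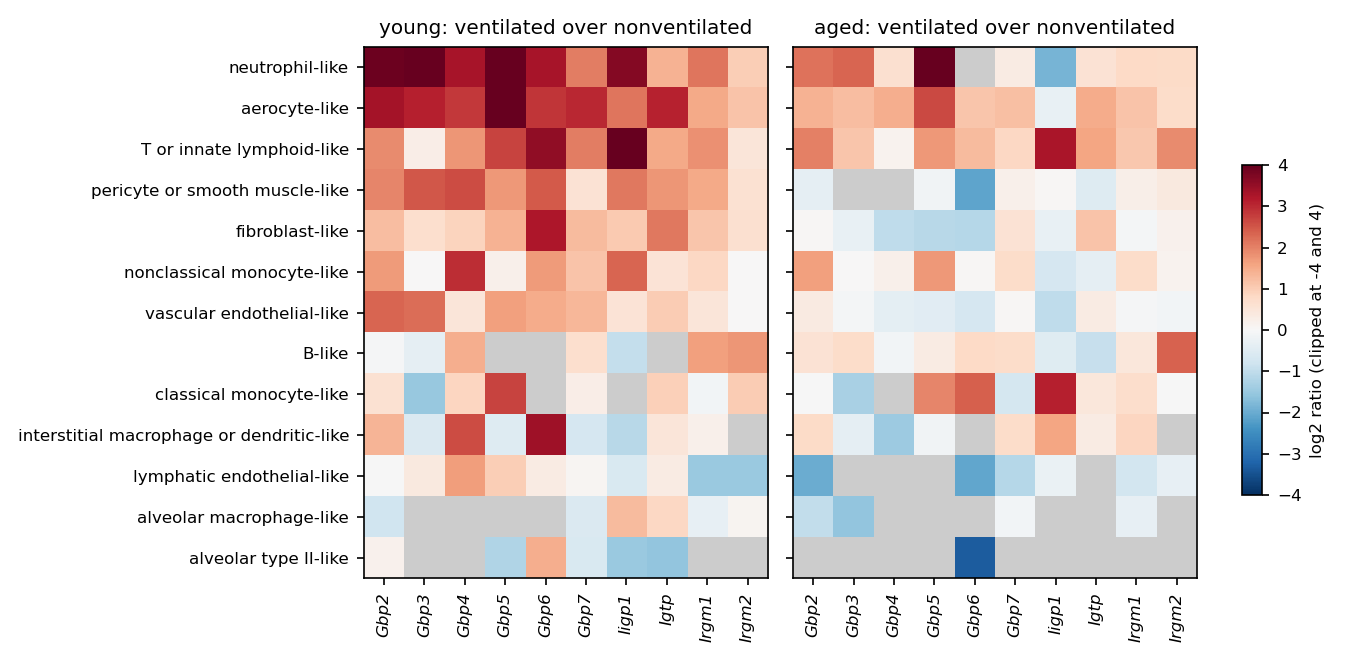
Log2 ratio, ventilated over nonventilated, of each member (columns) in each class (rows) in young mice (left) and aged mice (right); gray marks under 10 UMIs in the libraries compared and the color is clipped at -4 and 4. The upper rows are mostly red at both ages, while Iigp1 and Gbp6 turn from red in young to blue in aged vascular endothelial-like and fibroblast-like cells. Iigp1 is also blue in aged aerocyte-like and neutrophil-like cells.

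The makeup of the member UMIs differed between classes. These are shares of UMIs near the 3′ end of each transcript and not of transcript length. Iigp1 took 69.4% in fibroblast-like, 56.8% in pericyte or smooth muscle-like and 39.0% in vascular endothelial-like cells, but 12.3% in aerocyte-like, 8.55% in T or innate lymphoid-like and 2.24% in neutrophil-like cells. Over the 52 class by library sums, Pearson's r between log2 levels of 2 members ranged from 0.50 up, with a median of 0.75 over 45 pairs. Igtp (0.82) and Gbp7 (0.80) had the highest median r with the other members and Iigp1 the lowest (0.56). The points share 4 libraries, and the r values are descriptions.

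Levels per cell were compared in 4 classes. Median member level per cell in vascular endothelial-like cells was 1826, 4057, 1309 and 968 CPM of the cell. The 25th percentile of young ventilated cells (2249) was above the median of each other library. In aerocyte-like cells the medians were 502, 3568, 326 and 725, and the 10th percentile of young ventilated cells (1114) was above the 75th percentile of young nonventilated cells (763). Neutrophil-like cells had medians of 0 in both nonventilated libraries and 849 and 516 in the ventilated ones. In fibroblast-like cells the medians were 196, 766, 199.6 and 275, so that the median aged ventilated cell was above its control although the class sum was below it. Cells of the shallow fibroblast-like cluster were included.

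**Figure D5:**
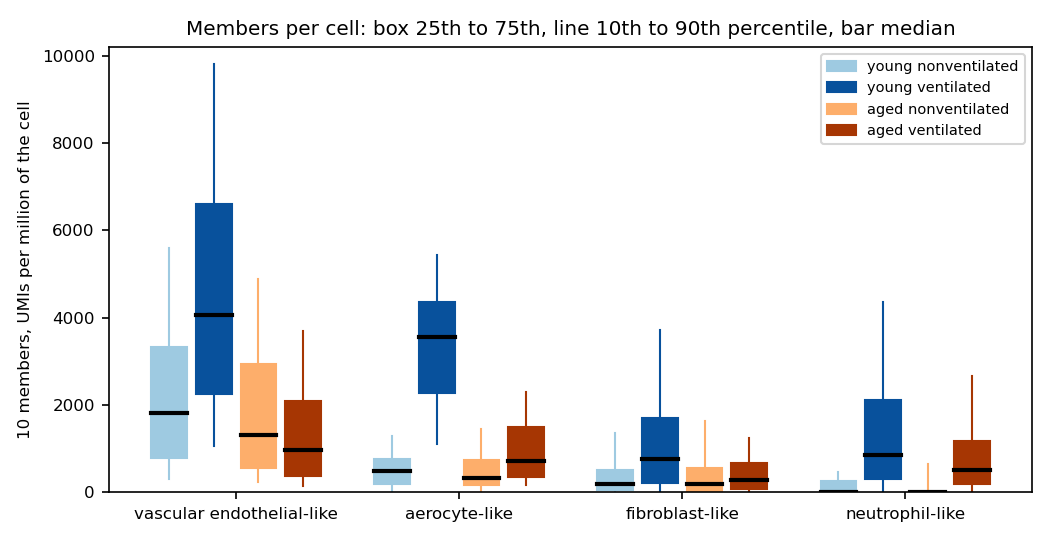
Summed members per cell (CPM of the cell) in 4 classes and 4 libraries; boxes span the 25th to 75th percentile, lines the 10th to 90th, and bars mark the median. Young ventilated cells have the highest median in each class, and aged ventilated vascular endothelial-like cells have the lowest of their class.

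With each cell thinned to 2000 UMIs, the share of aerocyte-like cells with UMIs of 3 or more members was 10 of 150 cells (6.67%, 3.24 to 11.9) in young nonventilated, 108 of 131 cells (82.4%, 74.8 to 88.5) in young ventilated, 7 of 87 cells (8.05%, 3.30 to 15.9) in aged nonventilated and 22 of 86 cells (25.6%, 16.8 to 36.1) in aged ventilated mice. In vascular endothelial-like cells it was 42.4%, 79.7%, 35.5% and 31.2%, and in fibroblast-like cells 2.46%, 16.6%, 3.54% and 3.78%. Of these 3 classes the share was lowest in fibroblast-like cells in every library. Neutrophil-like cells reached 24.2% and 10.3% after ventilation, from 0 of 116 and 0 of 50 thinned cells. For any member, the share in alveolar macrophage-like cells, one of the lowest classes, was 10.1%, 7.41%, 12.2% and 9.62%. It was 19.0%, 77.8%, 24.0% and 64.0% in neutrophil-like cells. Before thinning, 34.7% and 84.7% of young neutrophil-like cells had a member UMI, at median depths of 4555 and 4850.5 UMIs, and 242 to 447 cells of a library were too shallow to be thinned.

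Of 15 further Gbp and Irg genes present in the files, 14 had at least 40 UMIs. In young ventilated mice 6 of them were 2-fold higher, against 5.97% of all genes, and 1 was lower, against 17.6% (median log2 ratio 0.89). In aged mice 0 were past 2-fold in either direction, against 4.23% of genes higher and 11% lower (median -0.07). F830016B08Rik was at 9.60, 56.3, 14.6 and 13.9 CPM, 5.84-fold higher in young ventilated mice. Gbp9 was at 21.3, 65.9, 21.2 and 17.9. Gm5431 was at 2.11, 7.28, 2.93 and 2.89, and Gbp10 at 0.703, 2.57, 0.330 and 0.482. Between ventilated libraries 8 of 14 were 2-fold lower in aged mice, against 2.73% of all genes. Among them was Tgtp1, an Irg gene at 4.01, 7.71, 3.87 and 2.72. The one gene 2-fold lower in young ventilated mice was Irgc1, a family member known from testis, at 2.56, 1.07, 2.84 and 1.40.

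Of the ligands, Ifng had 9, 15, 22 and 29 UMIs over all kept cells, of which 8, 14, 20 and 29 were in T or innate lymphoid-like cells (23.3, 43.3, 25.1 and 47.7 CPM of the class). It was 2.29-fold higher in aged than in young nonventilated libraries and 2.30-fold higher in aged than in young ventilated ones, the opposite order to that of the members, from these few UMIs and from more T or innate lymphoid-like cells in the aged libraries. Per UMI of that class the ages were close. Ifnb1 had 1 UMI, in the young ventilated library, and Ifna4, Ifnl2 and Ifnl3 had none. A count of 0 in a library allows up to 3 UMIs, so that a difference in type I or type III interferon transcripts was not detectable at this depth. Of the cytokines that induce interferon gamma, Il12b was at 11.0, 22.2, 16.9 and 16.4 CPM and Il12a at 2.81, 0.893, 1.65 and 2.24, with opposite directions after ventilation in young mice.

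Receptors and signaling genes moved less than the members. Of 17, 1 was 2-fold higher in young ventilated mice, near the share of all genes (5.97%), and 0 in aged mice, against 4.23%. The 1 was Usp18, which encodes a feedback inhibitor of type I interferon signaling, at 13.5, 82.9, 14.9 and 26.9. The median log2 ratios of the 17 genes were 0.37 in young and 0.03 in aged mice. The genes given next were chosen after their values were seen. Irf1, a transcription factor that acts on Gbp promoters, was at 769.8, 644, 931 and 416 CPM in vascular endothelial-like cells and at 317, 176, 461 and 140.3 CPM in fibroblast-like cells. In both classes it was lower in each ventilated library than in its control, and lowest in the aged ventilated one. Over the 52 class by library sums, however, Irf1 was among the genes most like the summed members (Pearson's r 0.81). Ifngr1, a receptor chain for interferon gamma, was higher after ventilation at both ages in fibroblast-like cells, at 263, 405, 248 and 562 CPM.

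Most targets of type I interferon were higher after ventilation at both ages. Of 22 genes counted, 20 were 2-fold higher in young ventilated mice, against 5.97% of all genes, and 6 in aged ventilated mice, against 4.23%. At either age 0 were 2-fold lower, against 17.6% of all genes in young and 11% in aged mice. In total 1 of the 22 was lower in young and 2 were lower in aged ventilated mice by any amount. The medians of their log2 ratios were 2.23 (young) and 0.72 (aged), compared with 1.33 and 0.13 for the members. Rsad2, an antiviral enzyme, was at 8.85, 329.7, 11.0 and 61.9 CPM. Isg15, a ubiquitin-like modifier, was at 43.6, 566, 55.4 and 176, and Oasl1, a relative of the oligoadenylate synthetases, at 5.75, 58.6, 5.77 and 32.9. All 3 were higher in both ventilated libraries, and more so in the young one. Of 22 interferon gamma targets, 7 were 2-fold higher in young ventilated mice, against 5.97% of all genes, and 1 was lower, against 17.6%. In aged ventilated mice 3 were higher, against 4.23%. The medians were 0.51 in young and 0.07 in aged mice. The T cell attractant Cxcl9 was at 1.28, 26.0, 4.04 and 23.0, and Cxcl10 at 20.6, 387, 45.3 and 110.0. Serpina3g was at 8.56, 144, 14.6 and 136, close to one another in the ventilated libraries. The gene 2-fold lower in young ventilated mice was Ciita, the activator of MHC class II genes, at 33.9, 11.6, 29.9 and 23.0.

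Genes for the partners of these GTPases were mostly level or followed ventilation at both ages. Of 10 genes of the ATG8 conjugation system, which helps to load Gbp and Irg proteins onto vacuoles, 0 were past 2-fold in any comparison. The share of all genes was 2.04% to 17.6% by comparison and direction. The medians of the ATG8 genes were -0.02 in young and 0.03 in aged mice. Of 9 inflammasome genes, 2 were 2-fold higher in young ventilated mice (Casp4 and Il1b), against 5.97% of all genes. In aged ventilated mice 2 were (Il1b and Nlrp3), against 4.23%. Casp4, a sensor of bacterial lipopolysaccharide, was at 109, 228, 121 and 207 CPM. Nlrp3 was at 96.9, 129.8, 86.3 and 198, and Il1b at 494, 992, 478 and 1538, both highest in the aged ventilated library. Neutrophil-like cells made up 121, 222, 58 and 256 of the kept cells, and their part in these 2 genes was not tested.

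The genes outside the members with the profile most like that of their sum, by Pearson's r of log2(CPM + 10) over the 52 class by library sums and among 9562 genes, were Herc6 (0.85), Trim56 (0.83), Stat2 (0.82), Xaf1 (0.82) and Ifit1 (0.82). The points share 4 libraries and the same cells, so these r values are descriptions without a test.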

How the data were processed

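Single-cell 3′ RNA libraries (10x Genomics) were counted by the authors with Cell Ranger 7.0.0 against mm10, and the deposited matrices hold UMI counts that are not normalized. After the study's methods, barcodes needed 200 to 5000 genes, a mitochondrial share of 10% or less, and no more than 28597 UMIs, the 93rd percentile over all barcodes. No doublet caller was run. Cells were clustered with Seurat 5.3.0 (R 4.3.3) on 2000 variable genes, 37 components and resolution 0.18 (finer, 0.5). The members and the listed interferon genes were kept out, and clusters were named from marker lists. UMIs were summed per library and class and given for each 1000000 UMIs (CPM). Ratios added 1 UMI to each sum. Intervals were exact (Poisson for levels, conditional binomial for ratios, Clopper-Pearson for shares of cells) at 95%, except that those of age differences were approximate. A gene was counted with at least 40 UMIs, and called at 2-fold. Members, lists and motifs were chosen with earlier results of these data known. Of other lists, the named genes were at most 4 for each comparison and direction, by fold, among those whose interval left out 1. With 1 library per group, no test was made. The alternatives were other cell filters, scalings, clusterings and sums.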

Additional observations from a re-analysis of the deposited data

Results flagged for a closer look

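Some ventilation ratios pointed in opposite directions at the 2 ages, with counting intervals on either side of no difference. Over all kept cells the log2 ratio of the summed members was 1.11 (young) against -0.19 (aged), a difference of -1.31. The aged value was level with the median of all genes counted (-0.19), and median-ratio scaling raised aged ventilation ratios by 0.19. The aged sum turned positive without Iigp1 (0.22), for Gbp alone (0.21) and without vascular endothelial-like cells (0.33). All-gene medians were also negative in aged vascular endothelial-like (-0.16) and fibroblast-like cells (-0.11). Among single members, Gbp6 had 1.80 and -0.43 (difference -2.23), Iigp1 had 0.77 and -0.85 (difference -1.62), and Gbp4 had 0.80 and -0.26 (difference -1.06). By class, the sum had 1.00 and -0.44 in vascular endothelial-like cells (difference -1.44), and 1.13 and -0.21 in fibroblast-like cells (difference -1.35). In both classes many ventilated and nonventilated cells lay in different clusters, for fibroblast-like cells at the finer resolution. None of these differences was tested, because each group was 1 pooled library.

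The barcodes removed by the filters also held member UMIs. They were used in no comparison other than the alternatives below with all deposited barcodes or with other cell filters. Their summed members were at 752 (nonventilated) and 1348 (ventilated) CPM in young mice and at 647 (nonventilated) and 515 (ventilated) CPM in aged mice, the same order as in the kept cells.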

How the results depend on the processing

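No paired analysis was possible because each group was 1 library. Each alternative below is given as the log2 ratio of the sum over all kept cells, and the cause of a move was not tested. For young ventilated over nonventilated it was 1.19 (UMI limit from passing barcodes), 1.14 (mitochondrial limit 5%), 1.03 (all deposited barcodes), 1.37 (median-ratio size factors), 1.18 (mean over cells), 1.15 (fixed class shares), 1.19 (without the 1% of cells with most member UMIs), 1.36 (without Iigp1), 1.59 (Gbp alone) and 0.76 (Irg alone). For aged ventilated over nonventilated it was -0.14 (UMI limit), -0.23 (mitochondrial limit), -0.24 (all barcodes), -0.0028 (size factors), -0.077 (mean over cells) and -0.49 (Irg alone), and it turned positive without Iigp1 (0.22) and for Gbp alone (0.21). For aged over young nonventilated it was -0.36 (mean over cells), -0.35 (thinned to 1000 UMIs) and -0.13 (fixed shares). For aged over young ventilated it was -1.52 (no UMI limit), -1.60 (mitochondrial limit), -1.52 (all barcodes), -1.62 (size factors), -1.62 (mean over cells), -1.66 (thinned), -1.45 (fixed shares), -1.64 (without the top 1% of cells), -1.40 (without Iigp1), -1.60 (Gbp alone) and -1.51 (Irg alone). The age difference was -1.26 (no UMI limit), -1.37 (mitochondrial limit), -1.37 (size factors), -1.26 (mean over cells), -1.37 (without the top 1%), -1.14 (without Iigp1), -1.38 (Gbp alone) and -1.25 (Irg alone). Without vascular endothelial-like cells, an alternative chosen after seeing the data, the 4 ratios were 1.47, 0.33, -0.17 and -1.31, the age difference was -1.13, and 2 members passed 2-fold higher in aged ventilated mice. The share of all genes past 2-fold was not computed for this alternative, so that count cannot be set against it.

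In aged ventilated mice 1 member passed 2-fold higher as a mean over cells or thinned, and at 1.5-fold 1 was higher and 1 lower. The shares of all genes under these settings were not computed. The aged ventilated library was higher than the young in 1 class with either UMI limit, the mitochondrial limit, the mean over cells, thinning or without the top 1% of cells, and the aged nonventilated one in 3 classes with thinning. Interstitial macrophage or dendritic-like cells turned in aged ventilation (-1.06 with the UMI limit, -0.18 thinned) and in aged over young nonventilated mice (0.37 with the mitochondrial limit, 0.078 without the leading member). Alveolar type II-like cells turned in young ventilation (0.62 as a mean over cells, 0.21 thinned), lymphatic endothelial-like cells in aged over young ventilated mice for Irg alone (0.45), and Gbp7 in aged ventilation when thinned (-0.042). Pooling of mice into 1 library per group is the main limit, since spread between mice is unknown. Depth was enough for counting intervals of a few percent on the sums over all kept cells. Intervals of class sums were often wider, at 7.90 to 12.4 for the young ventilation ratio of neutrophil-like cells.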

Other observations

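Small classes with under 20 cells in a library were left out of the class counts. Mesothelial-like cells (10, 14, 3 and 3 cells) had the summed members at 540.3, 1289, 420.1 and 1326 CPM, from 66, 295, 17 and 48 UMIs, with both ventilated libraries above both nonventilated ones. Myofibroblast-like cells (36, 37, 23 and 16 cells) had them at 468, 688, 1125 and 262 CPM, highest in the aged nonventilated library. Alveolar type I-like cells (27, 36, 34 and 19 cells) had them at 21.1, 98.6, 26.9 and 13.5 CPM, from 8, 50, 13 and 4 UMIs. Basophil-like cells (18, 20, 22 and 6 cells) had them at 85.2, 139.8, 104 and 581 CPM, from 5, 8, 8 and 19 UMIs. The unnamed cells had them at 1044, 3694, 765 and 812 CPM.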
